A study of Mus musculus with 8 samples.

Results

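The genes described here are the numbered G-protein coupled receptors, those whose mouse symbol is Gpr followed by a number and at most 1 letter. Of 19938 genes measured under a single symbol, 69 met this rule, on 70 probe sets, and the brighter of the 2 Gpr31b probe sets was used. The set was selected on 1 measured value, the higher signal of Gpr141 in IL6raKO than in Ctrl macrophages, so the values of Gpr141 are given as a description with no test. RNA came from macrophages grown out of mouse bone marrow for 10 days in M-CSF (10 ng/ml), starved of serum overnight and treated for 4 h with 50 ng/ml of recombinant murine IL-6. Ctrl cells came from IL6ralpha flox/flox mice (4 arrays) and IL6raKO cells from IL6ralpha flox/flox LysMCre tg/wt mice (4 arrays), in which the lysozyme promoter drives Cre in myeloid cells. Both groups carried the floxed allele and both had been given IL-6. Cre was in IL6raKO only, so the Il6ra deletion and Cre itself cannot be told apart, and without unstimulated arrays a difference cannot be assigned to IL-6.

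G-protein coupled receptors cross the membrane 7 times and pass a signal to a heterotrimeric G protein, whose alpha subunit is of the Gs, Gi, Gq or G12/13 class. A symbol made of Gpr and a number was given to receptors known from their sequence before any ligand was, called orphans. Some have since been matched to protons, lipids or metabolites, some sit on internal membranes, and others have no accepted ligand. Macrophages are known to use several of them, among them the acid sensor Gpr65, the fatty acid receptor Gpr84 and the oxysterol receptor Gpr183. Members that have since been renamed, such as the adhesion receptors, fall outside the rule: 57 measured genes have an older Gpr number among their synonyms, and 0 of 18 listed adhesion receptors were measured under such a name.

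Sequences upstream of 3 members are shown as a description: Gpr141, the gene that chose the set, its neighbour Gpr141b, and Gpr146, 1 of the members whose window holds the letters bound by STAT factors. Each is the 250 bases before the gene start on its own strand, from RefSeq (GRCm38.p6), at chr13:19824258-19824507 (minus strand), chr13:19732952-19733201 (minus strand) and chr5:139380389-139380638 (plus strand), and capitals mark the STAT letters.
Gpr141: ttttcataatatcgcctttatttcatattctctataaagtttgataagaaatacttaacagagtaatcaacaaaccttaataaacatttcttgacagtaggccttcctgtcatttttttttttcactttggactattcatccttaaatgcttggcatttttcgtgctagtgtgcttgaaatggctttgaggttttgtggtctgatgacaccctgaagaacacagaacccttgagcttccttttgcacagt
Gpr141b: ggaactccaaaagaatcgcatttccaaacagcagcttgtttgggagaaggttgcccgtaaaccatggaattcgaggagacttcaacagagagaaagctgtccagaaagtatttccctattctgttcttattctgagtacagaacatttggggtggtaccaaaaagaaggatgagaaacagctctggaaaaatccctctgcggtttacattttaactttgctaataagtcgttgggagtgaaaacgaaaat
Gpr146: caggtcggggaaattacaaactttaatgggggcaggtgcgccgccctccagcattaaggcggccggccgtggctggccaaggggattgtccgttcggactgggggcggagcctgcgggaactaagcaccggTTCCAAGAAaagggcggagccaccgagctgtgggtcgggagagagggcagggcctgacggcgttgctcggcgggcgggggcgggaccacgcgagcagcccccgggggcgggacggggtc
Of the 69 members, 52 had at least 1 such window in RefSeq, 68 windows in all, and Gpr146 had 3, of which 1 is shown. On either strand, the STAT letters TTCNNNGAA were in 5 of the 68 windows (Gpr4, Gpr33, Gpr55, Gpr62 and Gpr146), or 7.4%, and in 7% of all 32851 windows of that length, so the share is near the background. The AP-1 letters TGANTCA were in 3 of the 68 windows and in 6.7% of all, and the PU.1 letters GAGGAAG in 7 and in 10.6%. None of the 3 motifs was in the Gpr141 or Gpr141b window.

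The RNA on the arrays was that of macrophages by its markers. All 10 measured macrophage markers, among them Csf1r, Adgre1 and Cd68, lay above the signal bound explained below, with array means of the list between 11.56 and 11.70 on the log2 scale in Ctrl and 11.60 and 11.66 in IL6raKO. Il6ra, the targeted gene, stood at 8.42 ± 0.02 in Ctrl and 7.92 ± 0.14 in IL6raKO (SD, n = 4 each), 70.6% of the control level. That difference was not called over all genes (limma adjusted p = 0.0607). Ctrl replicate 4 stood apart, at 21.5 on the first principal component where the others lay between -6.60 and 4.82, and values without it are given below where it bore on a result. Whether fewer cells of a type or less RNA per cell lies behind a lower value cannot be told apart in bulk RNA. The labels call the samples biological replicates without naming animals, so the p-values cover only how far these 8 samples vary, which may be technical.

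Most members gave weak signals. All values are log2 signals from RMA (robust multi-array average), and a probe set's signal also depends on its probes, so levels of different genes are only a rough guide. As a bound for signal without expression, the 95th percentile of the means of 1015 olfactory receptor genes, 6.52, was used. Above it lay 23 of the 69 members (33.3%), against 48.2% of all genes. Above the 99th percentile of the same genes, 7.39, lay 10 members (against 32.1% of all genes): Gpr65, Gpr137b, Gpr155, Gpr107, Gpr108, Gpr89, Gpr146, Gpr18, Gpr157 and Gpr183. The nearest members inside the bound were Gpr19 and Gpr137 (6.57 each), Gpr4 (6.74), Gpr20 (6.85) and Gpr62 (6.87), and the nearest outside were Gpr27 (6.43), Gpr26 (6.40), Gpr6 (6.39), Gpr176 (6.36) and Gpr141 (6.30). Signals of the members ran from 3.48 for Gpr174 to 11.42 for Gpr65. Replicates were tighter among bright members, with a median within-group SD of 0.09, than among dim ones (0.13).

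**Figure D1:**
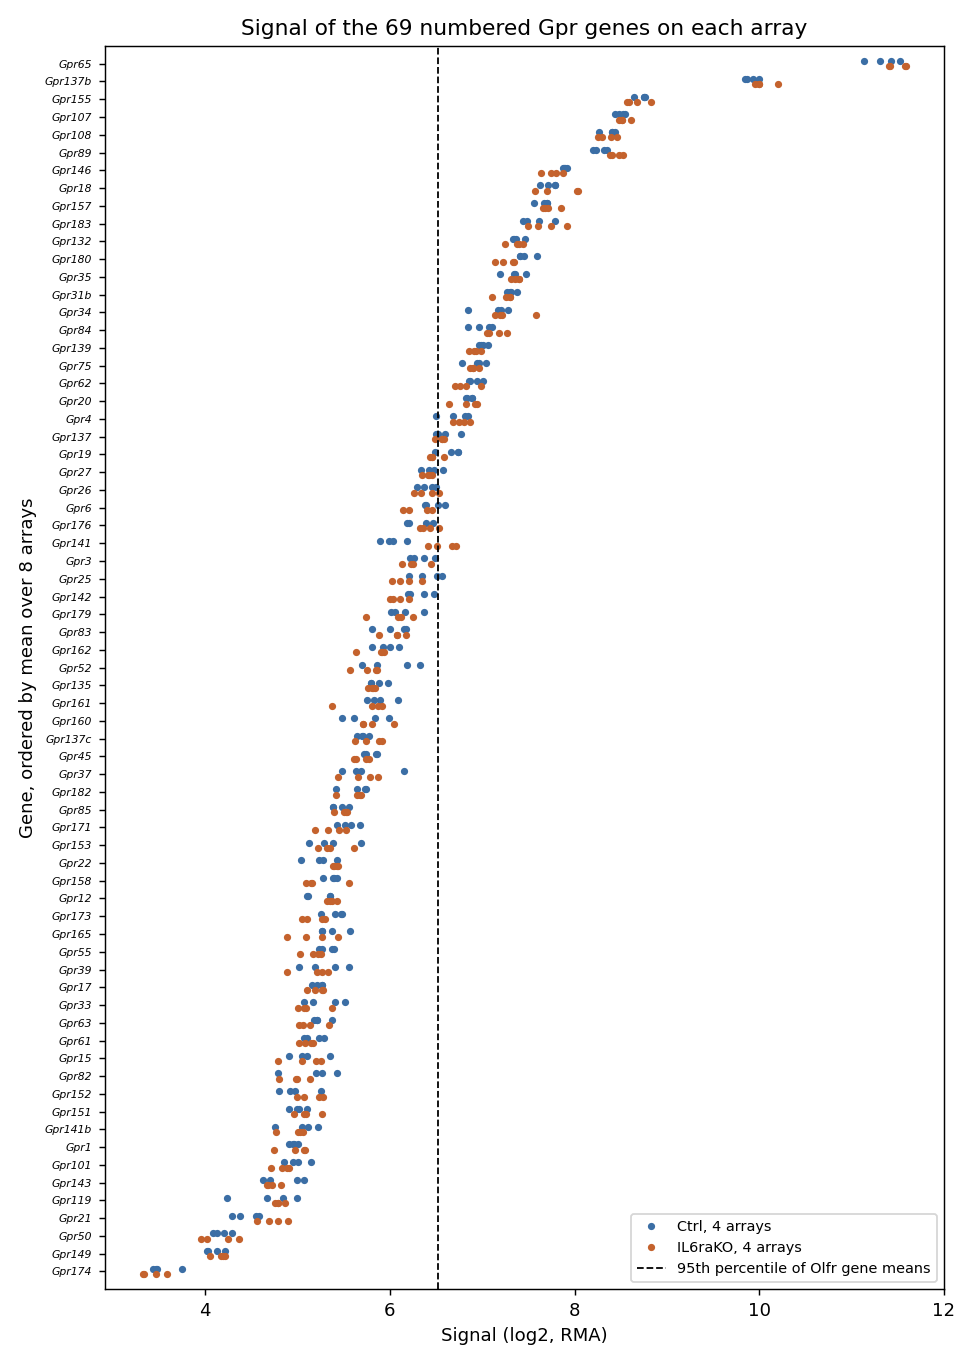
Log2 signal (x axis) of each of the 69 genes (y axis, ordered by mean) on the 4 Ctrl arrays (blue) and the 4 IL6raKO arrays (orange), with the olfactory receptor bound of 6.52 as a dashed line. Gpr65 and Gpr137b stand well to the right, 46 genes lie left of the bound, and Gpr141 is the gene whose colours separate most.

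Gpr141, an orphan receptor of the rhodopsin class, differed most of all members between the genotypes. Its signal was 5.89, 6.04, 5.99 and 6.19 in Ctrl replicates 1 to 4 and 6.67, 6.51, 6.71 and 6.41 in IL6raKO replicates 1 to 4. Every IL6raKO array was above every Ctrl array, with a gap of 0.22 between the groups. The means were 6.03 ± 0.12 and 6.58 ± 0.14 (SD, n = 4 each), a difference of 0.55 on the log2 scale, or 146% of the control level. With any 1 array left out the difference was between 0.50 and 0.60, and it was 0.60 without Ctrl replicate 4, which held the highest control value. Over all genes, 7 including Gpr141 were higher in IL6raKO by at least this much, and 11 differed by that much in either direction. The signal was low in both groups: 11.1% of olfactory receptor genes had a higher Ctrl mean and 3.6% a higher IL6raKO mean. In Ctrl the mean was below the olfactory receptor bound of the Ctrl arrays (6.50), and in IL6raKO it was above that of the IL6raKO arrays (6.46).

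A difference of that kind was not measured for Gpr141b, the member next to Gpr141 on chromosome 13, which is also known as Karma and marks a class of dendritic cells. Gpr141b was at 5.12, 5.05, 4.76 and 5.22 in Ctrl and 5.02, 5.001, 5.06 and 4.77 in IL6raKO, so the groups overlapped throughout. Its difference was -0.07, with a 95% confidence interval from -0.30 to 0.15 (adjusted p = 0.899 in limma), and it was -0.01 without Ctrl replicate 4. The 6 listed dendritic cell markers differed by between -0.22 (Zbtb46) and 0.14 (Siglech), 4 of them below 0. In limma 0 of these were called and 1 had an unadjusted p under 0.05. Array means of that list lay between 5.82 and 6.04 in Ctrl and between 5.82 and 5.94 in IL6raKO, and the part of such cells in the members' values was not tested. Of the other measured genes within 4 places of Gpr141, Epdr1 differed by 0.06, Sfrp4 by -0.02 and Nme8 by -0.04. Elmo1, a regulator of Rac in cell engulfment, was at 9.07 ± 0.05 in Ctrl and 9.22 ± 0.04 in IL6raKO (SD, n = 4 each), without overlap. The difference of 0.15 (95% confidence interval 0.02 to 0.27) did not pass, with a limma adjusted p of 0.663.

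Among the other 68 members no change passed the test. At a limma adjusted p under 0.05 over all genes, 0 of these 68 were called, where 0.0301% of all 19938 genes were. At an unadjusted p under 0.05, 7 of the 68 differed (10.3%), 2 higher and 5 lower. Over all genes the share was 7.28% (2.74% higher and 4.54% lower), so in the main fit the members' share is near the background. The 7 became 4 without IL6raKO replicate 3, where 5.71% of all genes had such a p. Without Ctrl replicate 4 they were 10 of the 68 (5 higher and 5 lower). That is a larger share than the 6.39% of all genes, 2.77% higher and 3.62% lower. With arrays centred on their 75th percentile they were 11 of the 68, 1 higher and 10 lower. This share too is larger than that of all genes, 8.65%, with 1.35% higher and 7.3% lower. That centring moved the median difference of all genes to -0.038. Differences were below 0 for 43 of the 68 (63.2%), against 54.2% of all genes. The median difference of all 69 members was -0.03, that of all genes -0.01, and no member but Gpr141 differed by 0.3 or more.

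**Figure D2:**
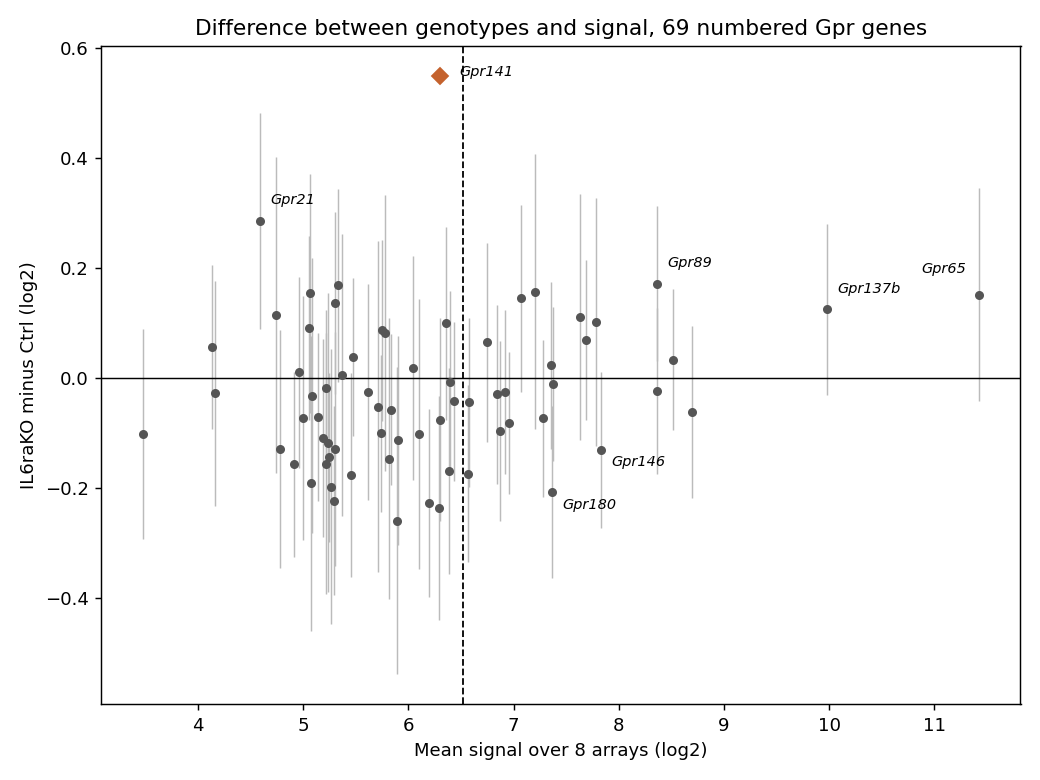
Difference between IL6raKO and Ctrl (y axis, log2) against the mean signal over 8 arrays (x axis, log2) for the 69 genes, with 95% confidence intervals from limma for all but Gpr141 (diamond), whose difference chose the set. The other 68 points lie between -0.26 and 0.29, and the dashed line is the olfactory receptor bound of 6.52.

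Beside Gpr141, 3 members had groups that did not overlap, 1 higher and 2 lower. Over all genes, 2.07% lay entirely higher and 2.37% entirely lower in IL6raKO. The higher one was Gpr89, the Golgi pH regulator, an anion channel that acidifies the Golgi. It was at 8.23, 8.20, 8.32 and 8.36 in Ctrl and 8.48, 8.40, 8.53 and 8.38 in IL6raKO. The groups were 0.026 apart, and the difference was 0.17 (SE 0.06, limma adjusted p = 0.652 over all genes).

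Gpr180, linked to TGF-beta signalling, was at 7.40, 7.45, 7.60 and 7.41 in Ctrl and 7.33, 7.14, 7.34 and 7.23 in IL6raKO. All IL6raKO arrays were lower, by 0.21 on average (SE 0.07, limma adjusted p = 0.616). Gpr146, a receptor known from cholesterol handling in liver, was at 7.92, 7.87, 7.89 and 7.89 in Ctrl, the tightest control group of those named here (SD 0.02, n = 4). In IL6raKO it was at 7.80, 7.87, 7.74 and 7.63, and only 0.002 separated the nearest arrays of the groups. Its difference was -0.13 (SE 0.06, limma adjusted p = 0.707). The other members with the STAT letters in a window differed by 0.06 (Gpr4), -0.16 (Gpr33), -0.14 (Gpr55) and -0.10 (Gpr62), none of them called.

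The remaining 5 members with an unadjusted p under 0.05 were weak or near the bound, and their groups overlapped. Gpr21, a brain orphan with constitutive activity, was at 4.29, 4.54, 4.58 and 4.38 in Ctrl and 4.79, 4.90, 4.56 and 4.69 in IL6raKO. Only 1 IL6raKO array reached into the control range, and the difference was 0.29 (SE 0.09, limma adjusted p = 0.596), the largest after Gpr141. Gpr21 lies within Rabgap1, a gene with a signal of 9.71 that differed by 0.06. Gpr142, a tryptophan receptor of pancreatic islets, differed by -0.23 (SE 0.08), and Btbd17, a gene whose interval overlaps it, by -0.10 at a signal of 6.35. Gpr173, a brain orphan, differed by -0.22 (SE 0.08), Gpr25, a receptor of lymphocytes, by -0.24 (SE 0.09) and Gpr19, an orphan of the brain, by -0.17 (SE 0.07). The limma adjusted p of these 4 lay between 0.616 and 0.669.

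**Figure D3:**
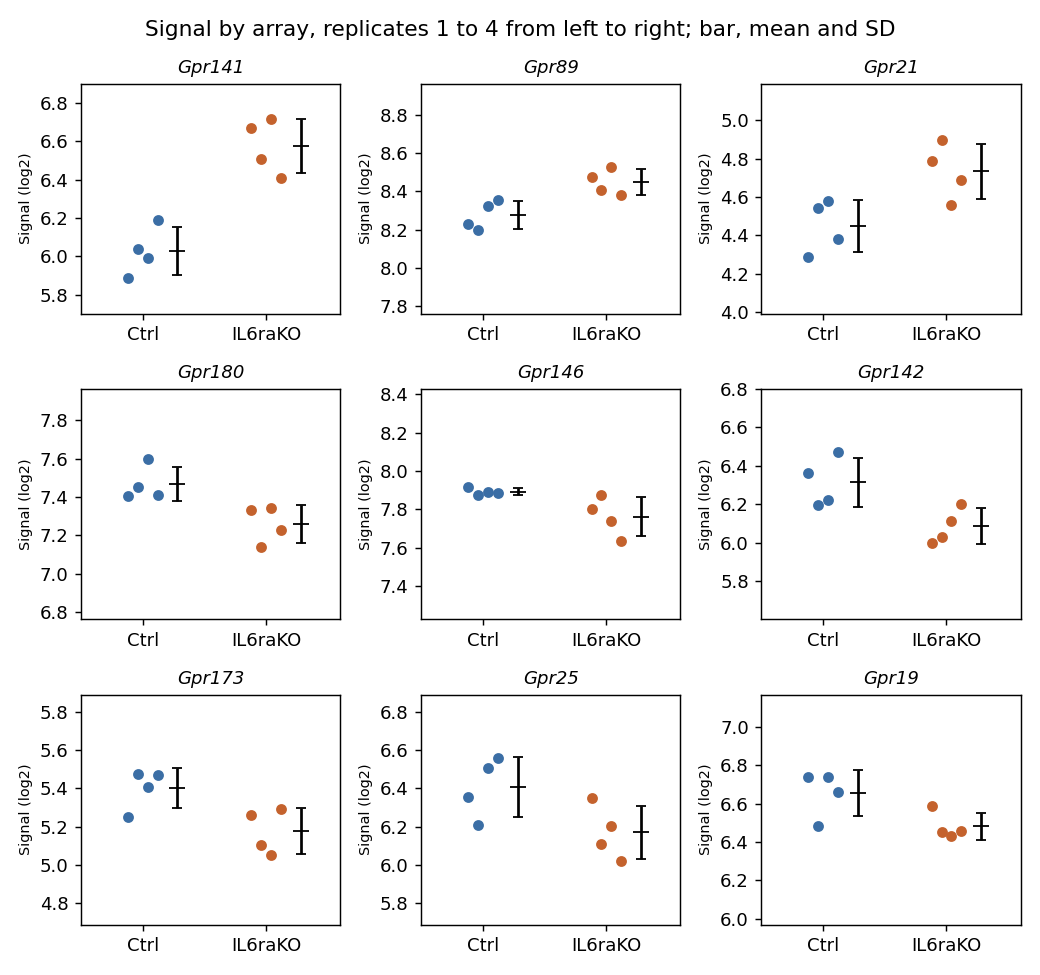
Log2 signal (y axis, each panel spanning the same range) of 9 genes by genotype (x axis), 1 point per array with replicates 1 to 4 from left to right, and bars for the mean and SD of 4 arrays. Gpr141 shows the widest gap, Gpr89, Gpr180 and Gpr146 separate narrowly, and the other 5 overlap.

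The proton-sensing receptors, which are activated by extracellular acid, were all above the bound, of which Gpr65 alone was above the 99th percentile, and none of the 3 measured passed. Gpr65, a Gs-coupled sensor of leukocytes, was the brightest member, at 11.52, 11.43, 11.30 and 11.13 in Ctrl and 11.58, 11.59, 11.41 and 11.41 in IL6raKO. Its groups overlapped, and the difference was 0.15 (95% confidence interval -0.04 to 0.35, limma adjusted p = 0.728), or 0.08 without Ctrl replicate 4, which held the lowest value. Gpr132, a lipid and acid receptor of macrophages, was at 7.38 ± 0.06 in Ctrl and 7.36 ± 0.08 in IL6raKO (SD, n = 4 each). Gpr4, better known from endothelium, was at 6.71 ± 0.16 and 6.78 ± 0.08 (SD, n = 4 each).

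Of 9 measured receptors for lipids and metabolites, 6 were above the bound and 2, Gpr18 and Gpr183, above the 99th percentile, and none had an unadjusted p under 0.05. Gpr84, which binds medium-chain fatty acids, was at 6.85, 6.96, 7.08 and 7.10 in Ctrl and 7.18, 7.07, 7.27 and 7.05 in IL6raKO. The upper control arrays lay among the IL6raKO arrays, and the difference was 0.15 (95% confidence interval -0.02 to 0.32). Gpr34, a lysophosphatidylserine receptor of macrophages and microglia, was at 7.20, 7.28, 6.85 and 7.17 in Ctrl and 7.19, 7.21, 7.13 and 7.58 in IL6raKO. They differed by 0.16 (95% confidence interval -0.09 to 0.41). Here 1 low control array and 1 high IL6raKO array set the difference, which was 0.06 at its smallest with an array left out. Gpr183 differed by 0.11 (95% confidence interval -0.11 to 0.33) and Gpr18, a lipid receptor of lymphocytes, by 0.10 (95% confidence interval -0.12 to 0.33). With 1 array left out, Gpr183 differed by 0.04 (without IL6raKO replicate 4) to 0.18 (without Ctrl replicate 4 or IL6raKO replicate 1). Gpr18 differed by 0.03 (without IL6raKO replicate 3) to 0.19 (without IL6raKO replicate 4). Both lie within Ubac2, at a signal of 8.02 and a difference of 0.01. Gpr35, a receptor for kynurenic acid, was at 7.34 ± 0.12 and 7.36 ± 0.04 (SD, n = 4 each), a difference of 0.02 that became -0.01 with arrays centred on their 75th percentile. Gpr31b, the eicosanoid receptor, differed by -0.07 on the probe set used and by -0.11 on its other one. The dim members of the list were Gpr55, a lysophosphatidylinositol receptor (5.24), Gpr119, a receptor of gut and islet cells (4.74), and Gpr174, a lysophosphatidylserine receptor of lymphocytes (3.48).

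Members that sit on internal membranes, or are atypical, made up 8 of the 23 above the bound, from 10 measured, and 6 of the 10 above the 99th percentile. Of those measured, 2 had an unadjusted p under 0.05 in limma, Gpr89 and Gpr180, described above, against 7.28% of all genes. Gpr137b, a lysosomal membrane protein, was second in signal, at 9.94, 9.86, 10.0 and 9.85 in Ctrl and 9.96, 10.0, 10.0 and 10.2 in IL6raKO. The IL6raKO arrays overlapped the controls except for replicate 4, and the difference was 0.12 (95% confidence interval -0.03 to 0.28). Its near-identical pseudogene Gpr137b-ps, at 10.88, differed by 0.08, and how far the probes of each read the other is uncertain. Gpr155, a cholesterol sensor of the lysosome, was at 8.73 ± 0.06 and 8.67 ± 0.12, Gpr107, a protein of Golgi trafficking, at 8.50 ± 0.04 and 8.53 ± 0.05, and its relative Gpr108 at 8.38 ± 0.08 and 8.35 ± 0.09 (SD, n = 4 each). Those 3 pairs lay within the replicate spread, with the interval for Gpr107 between -0.09 and 0.16. Gpr157, entered in this list but known from cilia, was at 7.66 and 7.72, Gpr137 at 6.59 and 6.55, and below the bound were Gpr137c (5.75) and Gpr143, a melanosome receptor (4.78).

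Receptors that raise cyclic AMP without a known ligand were below the bound, Gpr3 at 6.30, Gpr6 at 6.39 and Gpr12 at 5.30, with differences of -0.08, -0.17 and 0.14. Both measured class C receptors were below it as well, Gpr179 of the retina at 6.10 and Gpr158 of the brain at 5.30. Of 6 leukocyte receptors with Gpr141 among them, 0 were above the bound: Gpr160 was at 5.77, Gpr171 of T cells at 5.46, Gpr15, a homing receptor of T cells, at 5.09 and Gpr82 at 5.07. Of 32 other members, many of them studied in brain, 5 were above it: Gpr146, Gpr139 (6.96), Gpr75 (6.92), Gpr62 and Gpr19. The widest replicate spread was in dim members, Gpr37 (within-group SD 0.25), Gpr119 (0.23) and Gpr52 (0.23).

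Markers of other cell types mostly had differences below 0, as did 54.2% of all genes, and 0 were called, against 0.0301% of all genes. Their part in the members' differences was not tested. Below 0 were 6 of 10 neutrophil, 2 of 3 erythroid and megakaryocyte and 6 of 8 stroma markers. All 12 mast cell, basophil and eosinophil markers were below 0 in difference (median -0.13), with array means of the list between 6.21 and 6.73 in Ctrl and 6.02 and 6.56 in IL6raKO. Of these, 5 were above the signal bound, and the widest differences were those of Mcpt8 (7.60 in Ctrl and 7.14 in IL6raKO, a difference of -0.45) and Cpa3 (8.44 and 8.07, -0.38). All 6 B cell markers were below 0 too (5.32 to 5.53 against 5.23 to 5.32), and 0 of them were above the bound. For T and NK cells, 6 of 8 markers were below 0 (5.33 to 5.40 against 5.25 to 5.36), while Cd3g and Cd4 were higher, by 0.22 and 0.04. In limma 3 of the 8 had an unadjusted p under 0.05, against 7.28% of all genes. Ctrl replicate 4 held the highest control mean for the mast cell, B cell and neutrophil lists (6.73, 5.53 and 6.13). Without it the highest control means of these lists were 6.43, 5.43 and 5.97, and their median differences were -0.06, -0.07 and 0.05, where they had been -0.13, -0.14 and -0.02. Still below 0 were then 10 of the 12 mast cell, 6 of the 6 B cell and 4 of the 10 neutrophil markers. Ctrl replicate 4 also held the highest control value for 32 of the 69 members, where the other Ctrl arrays held it for 8 to 19, and without it 39 of the 68 members were below 0, not 43, against 50.8% of all genes.

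The measured genes for proteins that relay such receptors' signals did not pass the test either. Of 60 listed symbols, 55 were measured, and some of the 60 are older names of the same genes. Gnas (Gs alpha), Prkaca and Grk2, also listed as Adrbk1, were not among the genes measured under a single symbol, so nothing is said of them here. The list covers G-protein subunits, arrestins, receptor kinases, cyclases, phospholipases and downstream kinases, with Creb1, Ric8a and Ric8b. In limma 0 were called, and 3 had an unadjusted p under 0.05 (5.5%, against 7.28% of all genes), 0 higher and 3 lower. These 3 were among the 19 measured effectors, or 15.8% of that list. They were phospholipase Plcb4 at 6.11 ± 0.07 in Ctrl and 5.89 ± 0.06 in IL6raKO, adenylyl cyclase Adcy4 at 7.04 ± 0.07 and 6.82 ± 0.12, and Adcy1 at 6.10 ± 0.06 and 5.90 ± 0.13 (SD, n = 4 each). Only Plcb4 had groups that did not overlap, where 2.37% of all genes lay entirely lower, and its limma adjusted p was 0.566. The differences of 14 G alpha genes lay between -0.06 and 0.14 and those of 15 G beta and gamma genes between -0.09 and 0.10. The lowest p among arrestins and receptor kinases was that of Grk3, at 6.50 ± 0.05 and 6.67 ± 0.18 (SD, n = 4 each). The median difference of the 55 genes was 0.00.

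Some members lie inside other genes, and the gene table used gives no strand. In it the intervals of 24 members overlap those of a protein-coding gene, 22 such genes in all, which differed by between -0.22 and 0.14 with 0 called. Gpr141 is not among the 24, but its interval overlaps that of a pseudogene, Gm19154, which was not measured. In 13 of the 24 pairs the member and the other gene differed in the same direction. Among these were Gpr39 (-0.12) and Lypd1 (-0.22), Gpr171 (-0.18) and Med12l (-0.11), Gpr152 (0.15) and Cabp4 (0.10), and Gpr142 and Btbd17. In the other direction, Gpr52 differed by -0.26 (95% confidence interval -0.54 to 0.02) and Rabgap1l by 0.03, and Gpr82 by -0.19 (95% confidence interval -0.46 to 0.08) and Cask by 0.04. Gpr82 differed by -0.32 without Ctrl replicate 4, which held its lowest control value, and by -0.11 without Ctrl replicate 2. Without strand, how far the probes of a member read its neighbour was not tested.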

How the data were processed

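Each of 8 arrays (4 Ctrl, 4 IL6raKO) gave 1 log2 signal per probe set for 35556 probe sets, as deposited by the authors. The submitters' processing notes name RMA and R 2.13.1. The order of steps and the build were not given in the sources used here. Values ran from 1.96 to 14.2 and array medians from 6.31 to 6.35, and RMA compresses differences of dim probe sets. Platform annotation named 21789 probe sets by 1 symbol, 1621 had several and 12146 none. The brightest probe set per symbol gave 19938 genes, and the Entrez identifiers of all 69 members were found in RefSeq (GRCm38.p6) with unchanged symbols.

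IL6raKO minus Ctrl was fitted with limma 3.58.1 in R 4.3.3 (lmFit, eBayes) on all genes and 8 arrays, with no filter or covariate. P-values are two-sided, adjusted by Benjamini-Hochberg over all genes, called under 0.05. The procedure was tested on simulated data. With no read depth on arrays, precision rests on their number. No 2 arrays were alike (smallest SD of the log2 difference between 2 arrays 0.16). Named members are Gpr141 and Gpr141b, those with an unadjusted p under 0.05 or without overlap, the brightest 10, the members of the role lists, the 3 of widest spread and those nearest the bound. Others are given for their overlap or motif, chosen after their values were seen. Members and lists were chosen with earlier results of these data known. The samples share replicate numbers, which the main fit did not use as pairs. Alternatives were another variance model, the replicate block, a filter on dim genes, other normalization and centring, the mean of probe sets, all probe sets and leaving out each array.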

Additional observations from a re-analysis of the deposited data

Results flagged for a closer look

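Each member's 4 values were examined within each genotype, 138 sets in all. In 7 sets a single array lay far from its group, about as many as the 6.9 that chance gives. In Ctrl, replicate 1 was low for Gpr155 (8.64, the others 8.75 to 8.76), replicate 4 was high for Gpr174 (3.74, the others 3.44 to 3.47) and replicate 2 was high for Gpr63 (5.38, the others 5.18 to 5.21). In IL6raKO, replicate 2 was high for Gpr158 (5.56, the others 5.09 to 5.16) and low for Gpr182 (5.41, the others 5.64 to 5.69). IL6raKO replicate 4 was low for Gpr162 (5.63, the others 5.90 to 5.93), and replicate 1 was high for Gpr19 (6.59, the others 6.43 to 6.45). No array accounts for more than 2 of the 7.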

How the results depend on the processing

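With Gpr141 left aside, since its difference chose the set, the count of called members was 0 in every setting run, and 0 to 0 with any 1 array left out. Of the 7 members with an unadjusted p under 0.05 in the main limma fit, 3 were among the 23 members above the median signal. When only genes above the median signal were tested, 4 of these 23 had such a p. That is a larger share than the 8.26% of all genes tested there. With arrays centred on their 75th percentile the 7 became 11, against 8.65% of all genes. With an array left out they were 4 to 10. The median difference of all 69 members, with Gpr141 included, was -0.059 to -0.013 with an array left out. It was -0.06 after centring on the 75th percentile. No transducer gene was called in any setting run. Of 69 members, 23 were above the 95th percentile of olfactory receptor means and 10 above the 99th.

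Residuals of same-numbered arrays correlated between -0.011 and 0.041 over genes, and the main fit took the arrays as unpaired. These correlations cannot show whether same-numbered samples were prepared together, which the labels do not say. With the replicate block, 0 of the 68 members and 0 of all genes were called. In that limma fit 9 of the 68 had an unadjusted p under 0.05, 2 higher and 7 lower. Over all genes 7.3% had such a p, 2.72% higher and 4.58% lower.

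Of 46 named differences, 2 turned sign in settings other than leaving out an array: Gpr35 to -0.01 after centring and Gpr26 to 0.00 after a further quantile normalization. With an array left out, 12 turned sign at least once. Their ranges were -0.06 to 0.01 for Gpr108, 0.00 to 0.11 for Gpr4, -0.03 to 0.03 for Gpr132, -0.03 to 0.07 for Gpr35, -0.03 to 0.22 for Gpr119, -0.08 to 0.01 for Gpr137, -0.17 to 0.00 for Gpr179, 0.00 to 0.17 for Gpr160, -0.10 to 0.06 for Gpr15, -0.14 to 0.09 for Gpr37, -0.07 to 0.03 for Gpr20 and -0.05 to 0.04 for Gpr26. The cause was not tested. Dim signal limits most members, since 46 of 69 lay in the range of olfactory receptors.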
